A study of Mus musculus with 18 samples.

Results

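The genes described here are the heavy chains of the mouse major histocompatibility complex (MHC) class I molecules and their light chain. They were chosen by name: the classical heavy chain genes H2-K1 and H2-D1, the nonclassical genes H2-Q4, H2-Q6, H2-Q7, H2-Q10, H2-T22, H2-T23 and H2-M3, and B2m, which encodes beta-2-microglobulin. These are 10 of the 57010 genes in the count tables, and all 10 were found. The samples were 18 RNA libraries from 2 tissues, uterus and ovary, taken from age-matched C57B6/J mice of 20 to 25 weeks. Each tissue had 3 libraries per genotype. Wild-type mice (WT) were compared with heterozygotes (ARE+/-) and homozygotes (ARE-/-), and no further treatment was named. As background, ARE stands for the AU-rich element of the interferon gamma gene Ifng, a stretch of the messenger that shortens its life, so that mice lacking it make the cytokine over a longer time. The alteration is in the germ line, so every cell of an ARE mouse carries it, and no cell type is targeted.

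An MHC class I molecule is a heavy chain joined to beta-2-microglobulin and to a short peptide cut from proteins made inside the cell. CD8 T cells read the classical molecules on nearly all nucleated cells, while nonclassical ones are read mainly by natural killer cells and specialised T cells. Interferon gamma is a strong inducer of these genes: it acts in part through Irf1, whose targets carry an interferon-stimulated response element, and through Nlrc5, which is recruited to the X and Y boxes of class I promoters by the RFX and NF-Y factors.

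The 9 heavy chain genes lie on chromosome 17 and B2m on chromosome 2. In the annotation used for the counts, GENCODE M32, H2-K1 lies at chr17:34214991-34219321 on the minus strand and H2-D1 at chr17:35481706-35486475 on the plus strand. H2-Q4, H2-Q6, H2-Q7 and H2-Q10 follow on the plus strand between chr17:35598593-35603650 (H2-Q4) and chr17:35780986-35785460 (H2-Q10). H2-T23 lies at chr17:36340868-36343747, H2-T22 at chr17:36349299-36353639, both on the minus strand, and H2-M3 at chr17:37581111-37585375. B2m lies at chr2:121978167-121983564. The H2 genes resemble each other, and reads that fit several genes were counted for each of them. Of all windows of 75 bases in the longest coding transcript, 13.6% in H2-Q7 were also found letter for letter in H2-Q6, and 20.1% in H2-T22 were found in H2-T10. The share of windows found in any other gene was 1.55% for H2-K1, 6.90% for H2-D1, 7.91% for H2-Q4, 17.9% for H2-Q6, 21.7% for H2-Q7, 4.64% for H2-Q10, 26.1% for H2-T22 and 13.1% for H2-T23. It was 0 for H2-M3 and B2m, whose counts are therefore free of such sharing at this length. These windows come from GENCODE M21 transcripts, and the read length is not given in the sources used here.

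The promoters are shown because 9 of the 10 genes rose in both tissues of ARE-/- mice. H2-Q10 rose 14.4-fold in the uterus, the most of the 10, and was not called in the ovary. A link of the motifs to these values was not tested. The sequences are from RefSeq (GRCm38.p6), which held all 10 genes, and give the 180 bases before the listed start site, 5′ to 3′ on the gene's own strand. Capitals mark matches on either strand to 4 motifs: GGGNNTTCC (enhancer A, a site for NF-kappa B), AANNGAAA (the core of the interferon-stimulated response element), TGATGAC (the X2 box) and CCAAT (the Y box). The motifs were chosen after these promoters had been seen. The promoters of H2-D1, H2-Q4, H2-Q6 and H2-Q7 resemble each other, so their matches are not independent.
H2-K1 promoter, chr17:34000348-34000527, minus strand: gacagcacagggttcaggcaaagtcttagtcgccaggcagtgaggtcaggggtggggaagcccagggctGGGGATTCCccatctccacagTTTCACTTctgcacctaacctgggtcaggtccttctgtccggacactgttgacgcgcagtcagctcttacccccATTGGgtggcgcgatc
H2-D1 promoter, chr17:35262914-35263093, plus strand: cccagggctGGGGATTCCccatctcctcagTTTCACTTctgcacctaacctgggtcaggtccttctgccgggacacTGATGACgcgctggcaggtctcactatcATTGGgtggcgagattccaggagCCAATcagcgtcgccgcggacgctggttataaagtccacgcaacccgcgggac
H2-Q4 promoter, chr17:35379437-35379616, plus strand: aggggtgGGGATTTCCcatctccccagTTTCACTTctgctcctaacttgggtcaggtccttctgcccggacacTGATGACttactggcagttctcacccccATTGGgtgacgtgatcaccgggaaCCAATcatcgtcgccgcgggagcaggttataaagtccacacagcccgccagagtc
H2-Q7 promoter, chr17:35438975-35439154, plus strand: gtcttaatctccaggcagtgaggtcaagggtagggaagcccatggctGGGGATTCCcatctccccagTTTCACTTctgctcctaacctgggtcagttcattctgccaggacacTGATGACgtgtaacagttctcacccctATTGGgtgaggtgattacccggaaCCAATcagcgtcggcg
H2-Q10 promoter, chr17:35469909-35470088, plus strand: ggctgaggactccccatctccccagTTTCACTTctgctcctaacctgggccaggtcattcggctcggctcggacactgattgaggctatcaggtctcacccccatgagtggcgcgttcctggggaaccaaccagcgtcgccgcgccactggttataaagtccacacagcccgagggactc
H2-T23 promoter, chr17:36032702-36032881, minus strand: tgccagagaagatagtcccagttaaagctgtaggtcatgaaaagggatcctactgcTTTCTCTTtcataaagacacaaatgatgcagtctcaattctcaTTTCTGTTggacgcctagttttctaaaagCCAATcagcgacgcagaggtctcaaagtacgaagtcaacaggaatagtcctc
B2m promoter, chr2:122147507-122147686, plus strand: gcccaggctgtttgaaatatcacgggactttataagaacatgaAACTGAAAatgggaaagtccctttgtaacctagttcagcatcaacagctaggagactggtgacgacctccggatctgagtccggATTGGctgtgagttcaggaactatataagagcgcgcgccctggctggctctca
Within these 180 bases, AANNGAAA was found in 9 of the 10 promoters (all but H2-T22), against 15.2% of the 27025 promoters in the table. CCAAT was found in 9 of 10 (all but H2-Q10), against 28.2%. TGATGAC was found in 6 of 10, namely H2-D1, H2-Q4, H2-Q6, H2-Q7, H2-T22 and H2-M3, against 2.04%. GGGNNTTCC was found in H2-K1, H2-D1, H2-Q4, H2-Q6 and H2-Q7, against 3.70%. H2-Q10 held AANNGAAA, whose match ended 148 bases before the start, and none of the other 3 motifs. The wider window from 250 bases before to 50 bases after the start added a match of AANNGAAA for H2-T22, so that all 10 genes held it, against 24.2% of promoters. A longer form of the response element, with GAAA repeated after a gap of 2 bases, contains the shorter motif and was found in that window in H2-T22, H2-T23 and B2m (3.49% of promoters). TTCNNNGAA, the gamma-activated site, was found only in H2-M3 (8.47% of promoters). H2-K1 has 2 listed start sites, and the one listed first was used. A match is a stretch of letters and not a binding measurement, and its absence says only that these letters are not in the window.

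**Figure D1:**
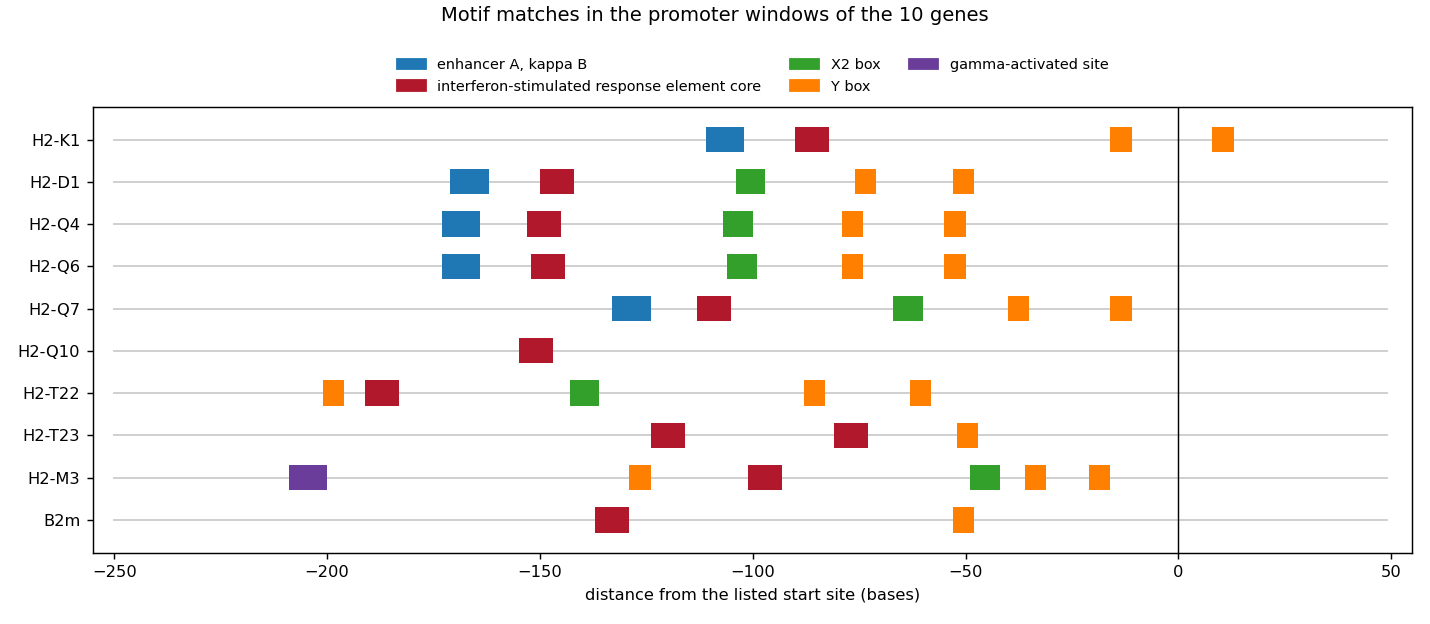
Positions of the motif matches in the RefSeq promoter windows of the 10 genes, with the distance from the listed start site in bases on the x axis and 1 line per gene. H2-D1, H2-Q4, H2-Q6 and H2-Q7 show the same series of 5 blocks in the same order, and H2-Q10 shows 1 block.

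The uterus libraries held 33185496 to 49720354 counts, and the ovary libraries 38132822 to 46647171. The lowest counts of any member were the 58, 40 and 45 of H2-Q10 in WT uterus. Levels are given as CPM, which puts the counts of all libraries on 1 depth after TMM scaling. Where genes are compared with each other, levels are given as TPM, which divides by gene length. Uterus WT 1 and ovary ARE-/- 6 are called backups in their titles. Uterus ARE-/- replicate 1 stood apart: its summed adipocyte markers were at 16997 CPM against 66.8 to 1808 in the other 8 uterus libraries, its summed red cell markers at 7267 CPM against 95.9 to 1300, and its summed ovary markers at 443 CPM against 67.9 to 118.5. The labels do not say whether a uterus and an ovary came from the same animal. The p-values rest on the spread between libraries within groups of 3, estimated jointly over all groups in a fit. In tissue RNA, more cells of a type and more RNA per cell cannot be told apart.

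Ifng was used to check the WT and ARE labels against each other, since the deleted element is not counted on its own. In the uterus it was at 0.107, 0.128 and 0 CPM in WT, at 1.10, 0.921 and 1.93 CPM in ARE+/- and at 2.67, 3.15 and 1.68 CPM in ARE-/-. In the ovary it was at 0.1023, 0 and 0.1004 CPM in WT, at 0.471, 0.213 and 0.719 CPM in ARE+/- and at 1.28, 0.966 and 1.24 CPM in ARE-/-. WT libraries were lowest in both tissues, and no WT library reached an ARE library. ARE+/- and ARE-/- were not told apart by Ifng (adjusted p = 0.986 in uterus, 0.638 in ovary), so those labels were not checked. In the uterus, the log2 rise was 4.93 ± 0.80 (SE) for ARE-/- (adjusted p = 0.0108) and 4.01 ± 0.79 for ARE+/- (adjusted p = 0.0469). In the ovary, it was 4.04 ± 0.80 for ARE-/- (adjusted p = 0.0129), while ARE+/- did not pass at 2.73 ± 0.80 (adjusted p = 0.127). These are values of edgeR's quasi-likelihood test with Benjamini-Hochberg adjustment over all genes, which is the test used throughout.

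In ARE-/- uterus, every one of the 10 genes rose. The classical heavy chain genes rose 6.84-fold (H2-K1) and 5.37-fold (H2-D1), B2m rose 5.83-fold, and the Qa-type genes H2-Q6 and H2-Q7 rose 10.3-fold and 9.92-fold. The largest rise was that of H2-Q10, at 14.4-fold from low WT counts. The smallest rise was that of H2-M3, which presents formylated peptides, at 3.69-fold. All 10 were called at an adjusted p under 0.05, against 3.75% of the 24277 genes tested (3.36% higher, 0.391% lower), and for all 10 the ARE-/- libraries lay above the WT libraries without overlap (12.5% of genes).

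H2-K1 stood at 538, 540 and 477 CPM in the 3 WT uteri and at 4168, 2796 and 3671 CPM in the ARE-/- uteri. Its lowest ARE-/- library was above its highest WT library by a wide margin, and the log2 fold change was 2.77 ± 0.26 (adjusted p = 0.000783). H2-D1 stood at 474, 506 and 417 CPM in WT and at 2964, 1926 and 2600 CPM in ARE-/-, a log2 rise of 2.42 ± 0.25 (adjusted p = 0.00104). Replicate 1 was the highest ARE-/- library for both genes in CPM, after scaling with the lowest TMM factor of the uterus (0.838), whereas replicate 3 was the highest in TPM. B2m stood at 388, 554 and 422 CPM in WT and at 2441, 2332 and 3180 CPM in ARE-/-, a log2 rise of 2.54 ± 0.26 (adjusted p = 0.00104). Here replicate 3 was the highest.

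Among the nonclassical genes, H2-Q7, which encodes the Qa-2 antigen together with H2-Q6 and others, went from 66.97, 81.52 and 61.93 CPM to 697.5, 592 and 799 CPM (log2 3.31 ± 0.24, adjusted p = 0.000516). H2-Q6 rose by 3.37 ± 0.24 on the log2 scale (adjusted p = 0.000516) and H2-Q4 by 2.77 ± 0.25 (adjusted p = 0.000668). The copies share reads, and their counts summed with those of H2-Q10 gave a log2 rise of 3.16 ± 0.25 (adjusted p = 0.000633). H2-T23, whose product carries leader peptides of other class I chains to the natural killer receptor made of Klrd1 and Klrc chains, went from 53.0, 60.1 and 47.2 CPM to 609.5, 275 and 413 CPM. Replicate 1 was the highest and replicate 2 the lowest, and the log2 rise was 3.02 ± 0.38 (adjusted p = 0.00314). H2-T22, a ligand of some gamma delta T cells, rose by 2.30 ± 0.25 on the log2 scale (adjusted p = 0.00123), and H2-M3 rose by 1.88 ± 0.22 (adjusted p = 0.00227).

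**Figure D2:**
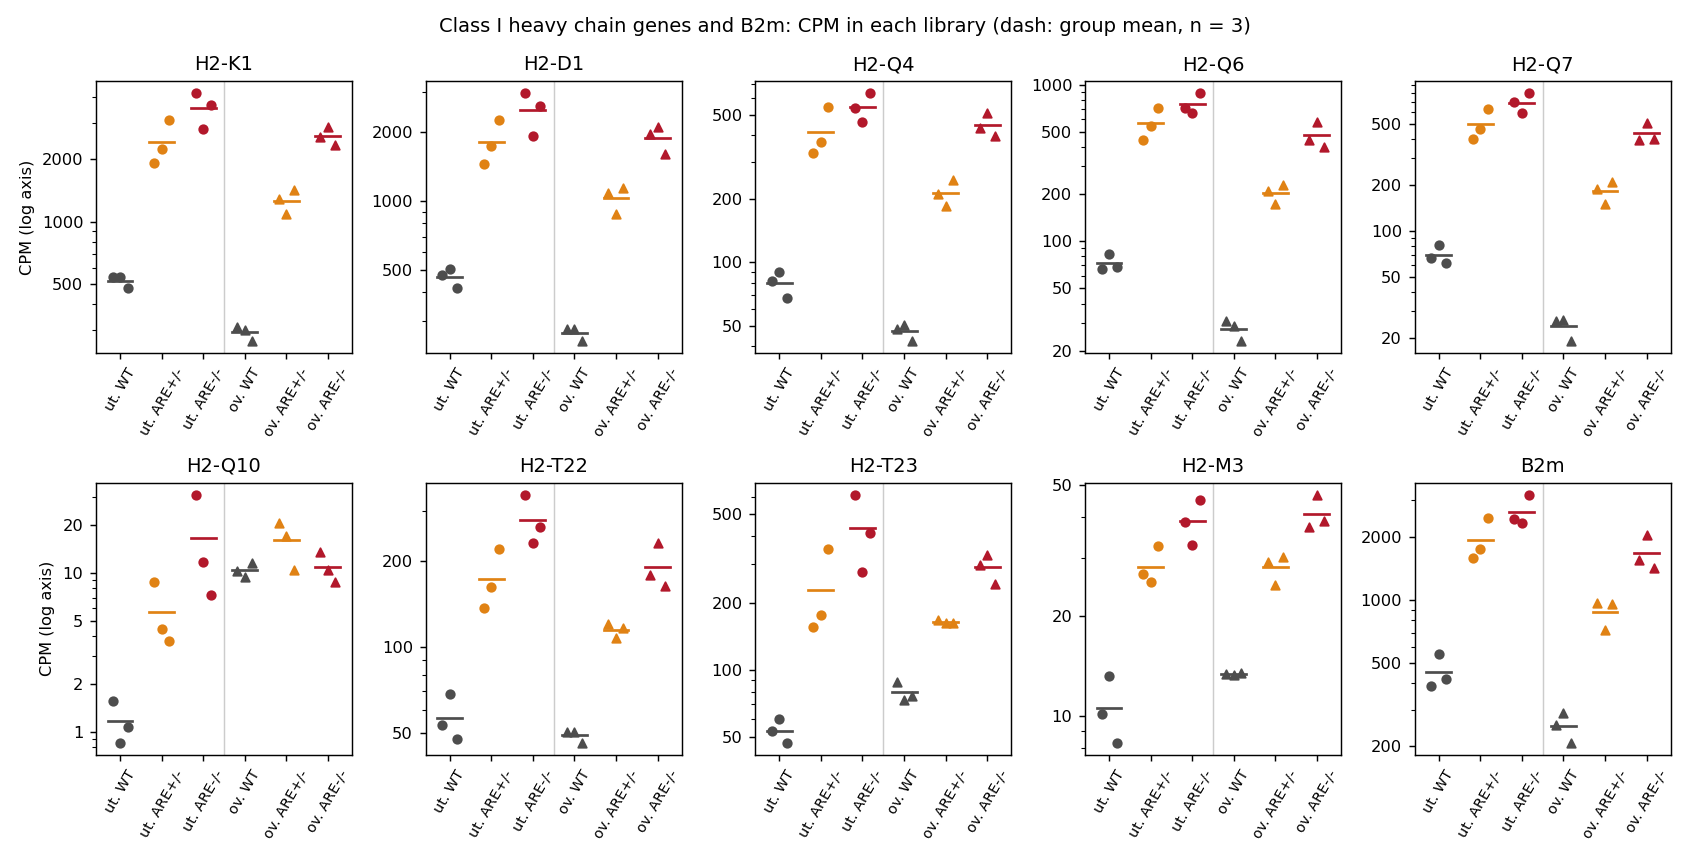
CPM of each gene in each library on a log axis, with 1 panel per gene, the 6 groups on the x axis (ut. uterus, ov. ovary), 1 point per library and a dash at the group mean (n = 3). In 9 panels the WT libraries lie lowest in both tissues, and the H2-Q10 panel shows WT ovary at 9.40 to 11.6 CPM, within the range of the ARE-/- ovaries.

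In ARE-/- ovary, 9 of the 10 genes rose and H2-Q10 did not pass the test. H2-Q7 rose 18.3-fold and H2-Q6 17.2-fold, followed by H2-Q4 (9.52-fold), H2-K1 (8.85-fold), H2-D1 (7.13-fold) and B2m (6.71-fold). H2-T22 (3.91-fold), H2-T23 (3.65-fold) and H2-M3 (3.07-fold) rose least. The background was 10.5% of 24457 genes (6.31% higher, 4.15% lower). The ARE-/- libraries lay above the WT libraries without overlap for the same 9 genes, against 16.1% of genes.

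H2-K1 stood at 311, 301 and 266 CPM in WT ovary and at 2559, 2863 and 2340 CPM in ARE-/- ovary. The groups were far apart and each was narrow, with a log2 rise of 3.15 ± 0.13 (adjusted p = 2.22e-06). H2-D1 went from 275.5, 277 and 245 CPM to 1962, 2111 and 1617 CPM (log2 2.83 ± 0.14, adjusted p = 3.05e-06). B2m went from 254, 289 and 209 CPM to 1548, 2060 and 1430 CPM (log2 2.75 ± 0.19, adjusted p = 3.55e-05). Replicate 3 was the highest ARE-/- library for H2-K1, H2-D1 and B2m. H2-Q7 stood at 26.0, 26.4 and 19.2 CPM in WT and at 398, 511 and 404 CPM in ARE-/- (log2 4.20 ± 0.19, adjusted p = 2.22e-06), and the summed H2-Q counts rose by 3.65 ± 0.16 on the log2 scale (adjusted p = 2.08e-06). H2-T23 went from 88.1, 73.4 and 76.2 CPM to 295, 327 and 244 CPM (log2 1.87 ± 0.12, adjusted p = 1.84e-05). H2-M3 was nearly identical in the WT ovaries, at 13.4, 13.2 and 13.4 CPM, and stood at 37.3, 46.6 and 39.0 CPM in ARE-/- (log2 1.62 ± 0.12, adjusted p = 5.31e-05).

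In the authors' deposited table of a likelihood-ratio test over the 3 genotypes, all 10 genes (uterus) and 9 of 10 (ovary) had an adjusted p under 1e-04, against 1.93% and 2.95% of genes with such a value. The gene outside in the authors' deposited table was H2-Q10 in the ovary (adjusted p = 0.163).

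**Figure D3:**
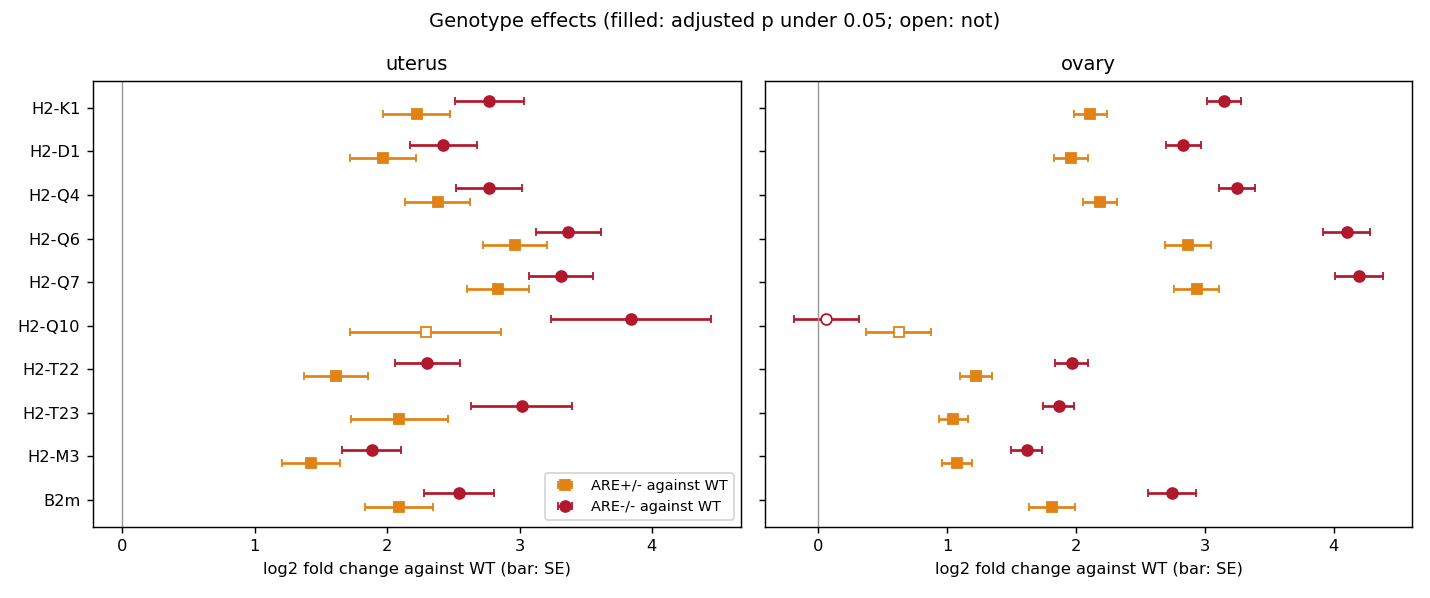
Log2 fold change of each gene against WT (x axis, with the SE as a bar) for ARE+/- and ARE-/-, uterus on the left and ovary on the right, with filled points for an adjusted p under 0.05. All points but those of H2-Q10 in the ovary lie above 1, and H2-Q10 is the widest bar in the uterus.

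Most of these genes also rose in mice with 1 copy of the ARE allele. In ARE+/- uterus, 9 of 10 genes rose, from 2.69-fold (H2-M3) to 7.82-fold (H2-Q6), against 1.14% of genes called (1.08% higher, 0.0535% lower), and in ARE+/- ovary 9 of 10 rose, from 2.07-fold (H2-T23) to 7.66-fold (H2-Q7), against 1.71% (1.35% higher, 0.356% lower). H2-Q10 was the exception in both, at a log2 fold change of 2.29 ± 0.57 (adjusted p = 0.0971, uterus) and 0.62 ± 0.25 (adjusted p = 0.263, ovary). No library overlapped with WT for 10 genes in the uterus (15.7% of genes) and 9 in the ovary (14.7% of genes). H2-K1 reached 1921, 2242 and 3096 CPM in ARE+/- uterus (log2 2.22 ± 0.25, adjusted p = 0.00702) and 1285, 1085 and 1424 CPM in ARE+/- ovary (log2 2.11 ± 0.13, adjusted p = 4.31e-05). B2m reached 1583, 1760 and 2472 CPM in the uterus (log2 2.09 ± 0.26, adjusted p = 0.00738) and 972, 716 and 955 CPM in the ovary (log2 1.82 ± 0.18, adjusted p = 0.00125). The ARE+/- and ARE-/- comparisons share their WT libraries. The uterus calls for ARE+/- did not all hold when single WT libraries were left out. Without WT replicate 1, 2 members were called (H2-Q6 and H2-Q7), without WT replicate 2, 9, and without WT replicate 3, none. Without WT replicate 3, the 9 genes had log2 values of 1.28 (H2-M3) to 2.92 (H2-Q6) and adjusted p-values of 0.0594 to 0.192. The log2 value of H2-K1 moved little, from 2.22 to 2.25 without WT replicate 1 and to 2.16 without WT replicate 3. In the ovary the count was 9 without any one of the 9 libraries.

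ARE-/- was also compared with ARE+/- directly. In the ovary, 9 genes were higher in all 3 ARE-/- libraries than in any ARE+/- library (6.32% of genes), and 4 of 10 rose: H2-K1 by 1.03 ± 0.12 on the log2 scale, H2-Q4 by 1.06 ± 0.13, H2-Q6 by 1.23 ± 0.17 and H2-Q7 by 1.26 ± 0.16 (adjusted p = 0.0448 to 0.0487). They belong to 12 genes called in all (0.0491% of genes tested, each of them higher). H2-D1 (0.87 ± 0.13, adjusted p = 0.0651), H2-T23 (0.82 ± 0.11, adjusted p = 0.0570), B2m (0.93 ± 0.18, adjusted p = 0.187), H2-T22 (0.74 ± 0.12, adjusted p = 0.110) and H2-M3 (0.54 ± 0.12, adjusted p = 0.255) did not pass, nor did H2-Q10, whose value was lower in ARE-/- (-0.56 ± 0.25, adjusted p = 0.594). These adjusted p-values lie close to the threshold, and the count of 4 was 0 to 6 when single ovary libraries were left out: 0 without WT 1, WT 2, ARE+/- 1, ARE+/- 2, ARE+/- 4, ARE-/- 2 or ARE-/- 3, 2 without WT 3 and 6 without ARE-/- 6. In the uterus, the ARE-/- value was above the ARE+/- value for all 10 genes, by 0.39 (H2-Q4) to 1.55 (H2-Q10) on the log2 scale. None passed the test in edgeR or DESeq2, 4 had an unadjusted p under 0.05, and 0.00% of all genes were called in edgeR (4.87% at an unadjusted p under 0.05). The groups did not overlap for 2 of the 10 genes, H2-T22 and H2-M3 (4.77% of genes). Between libraries with the same number, ARE-/- was higher in 3 of 3 pairs for all 10 genes, though the labels name no such pairs. The share of all genes with this pattern was not counted. Without H2-Q10, the members correlated with each other at 0.950 to 0.999 in the uterus, so they are not separate observations. The fit with the replicate number as a block called none (lowest adjusted p = 0.560, H2-Q10).

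On the linear CPM scale, the mean of ARE+/- lay 45.9% (H2-T23) to 73.1% (H2-Q6) of the way from WT to ARE-/- in the uterus for the 9 genes without H2-Q10, with a median of 66.9%. In the ovary the same 9 genes lay at 38.4% (H2-Q7) to 53.5% (H2-M3), with a median of 42.4%. B2m lay at 67.6% in the uterus and 44.1% in the ovary, and H2-K1 at 62.8% and 42.4%. The difference between the tissues in this percentage was not tested. On the log2 scale, all 10 ARE+/- values lay above the midpoint of WT and ARE-/-, in the uterus by 0.37 to 1.28 and in the ovary by 0.12 to 0.84. None was called by edgeR, for the members or for any other gene (0.00% in each tissue), while 8 uterine and 9 ovarian member values had an unadjusted p under 0.05. DESeq2 called 4 members in the uterus, of 103 genes called in all, and 5 in the ovary, of 34. At this contrast, an unadjusted p under 0.05 was found for 5.55% of all genes (uterus) and 5.61% (ovary). A gene exactly halfway on the CPM scale lies above the log2 midpoint whenever ARE-/- is above WT. Values above the log2 midpoint therefore do not show ARE+/- beyond halfway in CPM. H2-K1 in the ovary lay 0.54 above the log2 midpoint and at 42.4% on the CPM scale.

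**Figure D4:**
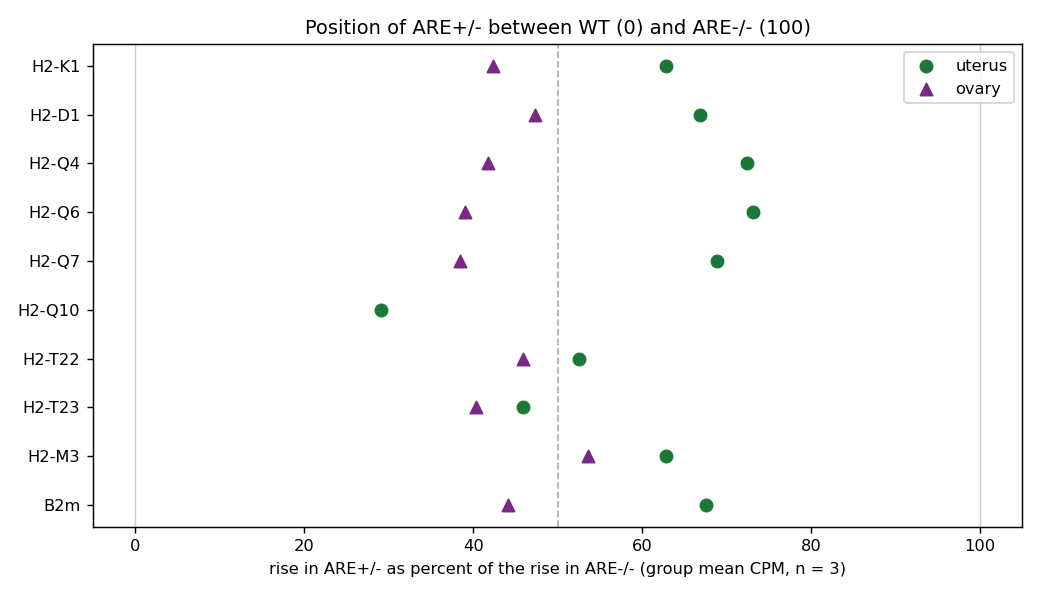
Position of the ARE+/- mean between WT (0%) and ARE-/- (100%) on the CPM scale for each gene, circles for the uterus and triangles for the ovary, with a dashed line at 50%. The circles lie to the right of the triangles for each of the 9 genes that have both, and H2-Q10 has no triangle because its WT and ARE-/- means in the ovary were nearly equal (10.4 and 10.9 CPM).

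The tissues already differed in WT. In WT ovary, 6 of the 10 genes were lower than in WT uterus: H2-Q7 by a log2 difference of -1.70 ± 0.20 (adjusted p = 2.17e-05), H2-Q6 by -1.53 ± 0.20, B2m by -1.002 ± 0.21 (adjusted p = 0.00270), H2-K1 by -0.97 ± 0.18, H2-D1 by -0.95 ± 0.18 and H2-Q4 by -0.91 ± 0.19. H2-Q10 was higher in the ovary, by 3.03 ± 0.49 (adjusted p = 0.000297). H2-T23 (0.43 ± 0.27, adjusted p = 0.284), H2-M3 (0.20 ± 0.17, adjusted p = 0.445) and H2-T22 (-0.35 ± 0.19, adjusted p = 0.197) did not pass. The background was 25.2% of 26682 genes (13.3% higher and 11.9% lower in the ovary), so that a call here is common.

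The size of the ARE-/- effect was compared between the tissues in an interaction test over all 18 libraries, in which 0.169% of genes were called. H2-Q10 was the only member called, at a log2 difference (ovary minus uterus) of -3.78 ± 0.65 (adjusted p = 0.0318). H2-Q7 (0.88 ± 0.27, adjusted p = 0.181) and H2-Q6 (0.73 ± 0.28, adjusted p = 0.262) had larger effects in the ovary and H2-T23 a smaller one (-1.15 ± 0.39, adjusted p = 0.211), without passing. For H2-K1 the difference was 0.37 ± 0.25 (adjusted p = 0.546) and for B2m 0.20 ± 0.30 (adjusted p = 0.827). For ARE+/- no member was called in edgeR or DESeq2, and 0.00375% of all genes were called in edgeR. An unadjusted p under 0.05 in edgeR was found for 2 members (H2-Q10 and H2-T23) and for 8.92% of all genes.

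H2-Q10 encodes a class I molecule known mainly as a secreted product of the liver. In WT uterus it stood at 1.56, 0.854 and 1.07 CPM, in ARE+/- uterus at 8.84, 4.45 and 3.73 CPM and in ARE-/- uterus at 31.0, 11.7 and 7.31 CPM. Every ARE library was above every WT library, replicate 1 was the highest in both ARE groups, and the log2 rise in ARE-/- was 3.85 ± 0.60 (adjusted p = 0.00930). In the ovary it stood at 10.3, 9.40 and 11.6 CPM in WT, at 20.8, 17.1 and 10.4 CPM in ARE+/- and at 13.6, 10.4 and 8.75 CPM in ARE-/-. These 3 groups overlapped, and the log2 fold change in ARE-/- was 0.06 ± 0.25 (adjusted p = 0.907). Without uterus ARE-/- replicate 1, the library with raised ovary markers, the uterine log2 rise was 3.03 (adjusted p = 0.00810) and the difference between the tissues -2.98 (adjusted p = 0.0261). Without uterus WT replicate 3 the uterine rise was 3.79 (adjusted p = 0.0688). The difference between the tissues kept its sign and missed the threshold without any one of 10 other libraries (uterus WT 1 and 3, ovary WT 1, 2 and 3, ovary ARE+/- 1 and 2, and ovary ARE-/- 2, 3 and 6), at -4.04 to -3.64 with adjusted p-values of 0.0528 to 0.109. Summed liver markers stood at 2.81 to 7.87 CPM in WT uterus, 4.31 to 10.3 CPM in ARE-/- uterus, 16.3 to 20.1 CPM in WT ovary and 13.5 to 27.7 CPM in ARE-/- ovary. The single markers did not all follow the sum between the WT tissues. Apoa1 (log2 12.2) and Ahsg (3.21) were called higher in WT ovary and Ttr (-9.21) lower. Alb, Apoa2 and Serpina1a had lower values in WT ovary without being called. Of the 7 liver marker genes found, Fgb was at 0 in all libraries of 6 groups, and none was called for ARE-/- in either tissue (4 tested in the uterus and 5 in the ovary). As a share of all heavy chain TPM, H2-Q10 was 0.0548% to 0.107% in WT uterus and 0.0716% to 0.280% in ARE-/- uterus, ranges that overlap. Its ovarian share was 1.04% to 1.43% in WT and 0.132% to 0.197% in ARE-/-, ranges that do not. How far reads shared with the other H2 genes entered the low uterine counts was not tested.

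Per length, the order B2m, H2-K1, H2-D1 led the members in all 18 libraries, with H2-M3 and H2-Q10 last. In WT uterus the means were 916 ± 154 TPM for B2m, 546 ± 54.0 TPM for H2-K1, 359 ± 40.4 TPM for H2-D1, 79.4 ± 10.97 TPM for H2-Q7, 77.5 ± 11.8 TPM for H2-Q4, 63.1 ± 7.86 TPM for H2-T23, 60.3 ± 6.62 TPM for H2-Q6, 54.4 ± 9.76 TPM for H2-T22, 12.7 ± 2.89 TPM for H2-M3 and 1.02 ± 0.363 TPM for H2-Q10 (SD, n = 3). H2-Q7, H2-Q4, H2-T23, H2-Q6 and H2-T22 overlapped in range each with the next in this order. In WT ovary H2-T23 took the fourth place at 104.7 ± 9.13 TPM, above H2-T22 (52.9 ± 2.08 TPM) and H2-Q4 (51.0 ± 4.21 TPM), whose ranges overlapped, and above H2-Q7 (30.2 ± 4.88 TPM) and H2-Q6 (25.8 ± 3.55 TPM), whose ranges overlapped too. In ARE+/- ovary, H2-Q4 (233 ± 29.3 TPM), H2-Q7 (232 ± 34.8 TPM) and H2-T23 (218 ± 4.32 TPM) overlapped in range. In both ARE-/- tissues H2-Q7 took the fourth place, at 682 ± 165 TPM in the uterus and 540 ± 68.5 TPM in the ovary. B2m reached 4677 ± 1383 TPM and H2-K1 3165 ± 459 TPM in ARE-/- uterus, and 3695 ± 660 TPM and 2961 ± 235 TPM in ARE-/- ovary. Ranked by mean TPM among the 57010 genes, B2m moved from place 135 in WT to place 21 in ARE-/- uterus and from 181 to 22 in the ovary, and H2-K1 from 205 to 31 and from 309 to 29. The 10 genes together made up 0.193% to 0.242% of all TPM in WT uterus, 1.00% to 1.47% in ARE-/- uterus, 0.128% to 0.155% in WT ovary and 0.926% to 1.18% in ARE-/- ovary.

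H2-K1 was the most abundant heavy chain messenger in every library. The shares of several chains varied with genotype, among them that of H2-K1 in the ovary. H2-K1 made up 43.6% ± 1.61 of heavy chain TPM in WT uterus and 44.1% ± 0.987 in ARE-/- uterus, and 39.7% ± 0.374 in WT ovary and 44.7% ± 0.925 in ARE-/- ovary (SD, n = 3). The share of H2-D1 was 28.6% ± 0.155 in WT uterus, 24.1% ± 0.692 in ARE+/- and 22.8% ± 0.734 in ARE-/-. H2-Q4, H2-Q6 and H2-Q7 together went from 17.3% ± 0.901 in WT uterus to 24.6% ± 0.124 in ARE+/- and 23.3% ± 3.17 in ARE-/-, and from 12.3% ± 0.728 in WT ovary to 19.0% ± 0.518 in ARE+/- and 21.7% ± 1.04 in ARE-/-. In both tissues all ARE libraries were above all WT libraries for this share. H2-T22 and H2-T23 together made up 18.2% ± 0.996 in WT ovary, 10.01% ± 1.08 in ARE+/- and 8.61% ± 0.299 in ARE-/- ovary, while in the uterus the share was 9.36% ± 0.604 in WT and 9.11% ± 1.49 in ARE-/-. H2-M3 went from 2.09% ± 0.167 to 0.815% ± 0.0626 in the ovary and from 1.01% ± 0.145 to 0.562% ± 0.0690 in the uterus. These shares are descriptions and were not tested. Summed over the 9 chains, heavy chain TPM per B2m TPM was 1.62, 1.21 and 1.32 in WT uterus and 1.96, 1.42 and 1.39 in ARE-/- uterus. The ovarian ratio was 1.60, 1.36 and 1.69 in WT and 1.92, 1.65 and 1.86 in ARE-/-. The WT and ARE-/- ranges overlapped in both tissues.

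**Figure D5:**
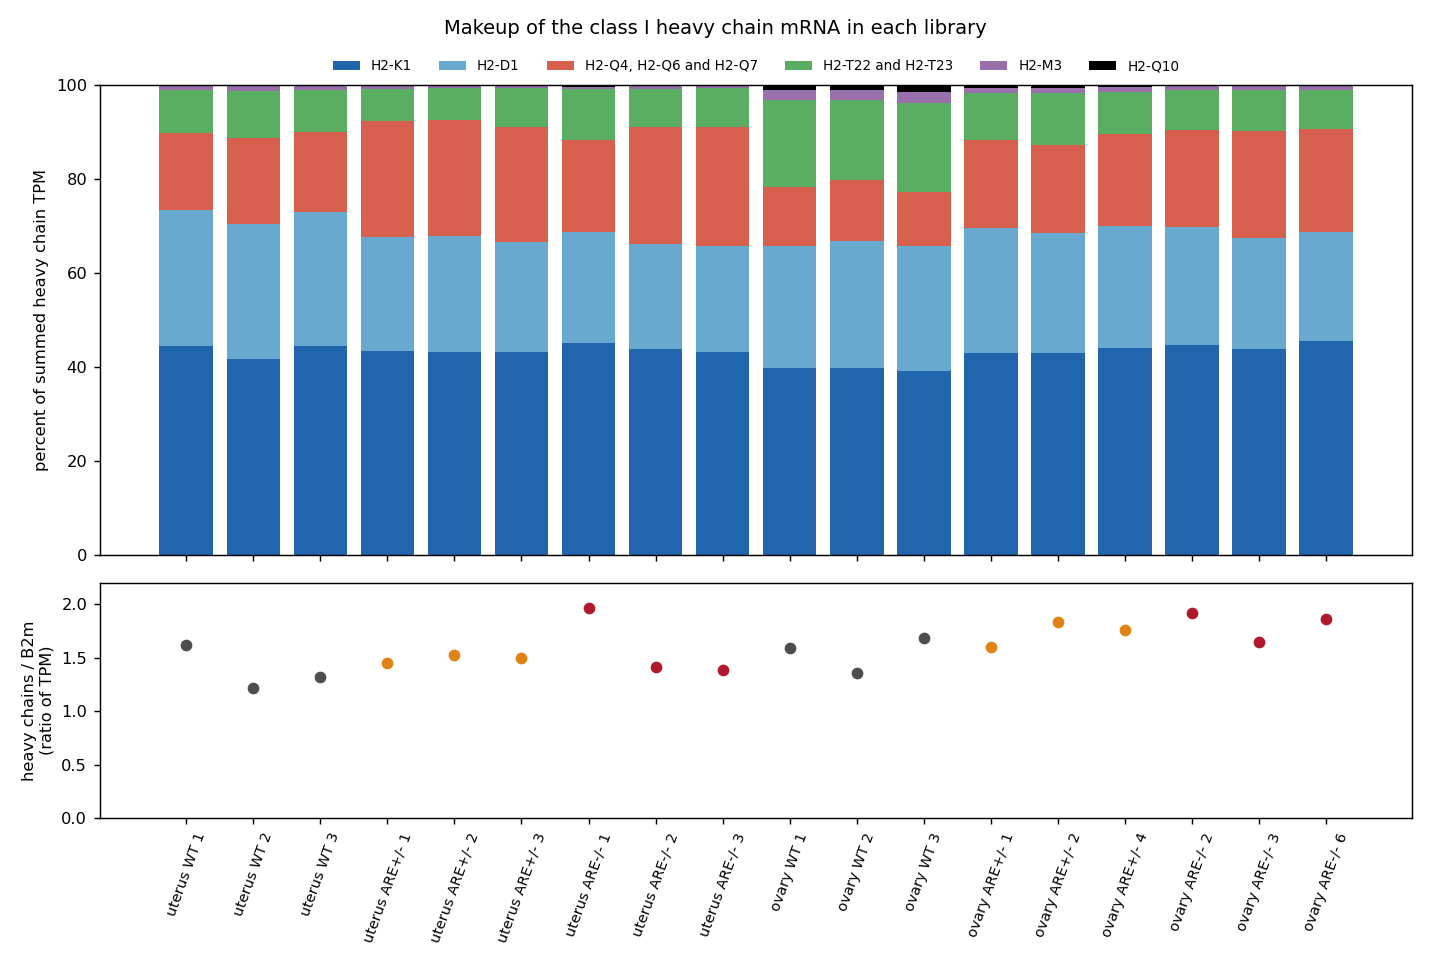
Upper panel: share of each chain or group of chains in the summed TPM of the 9 heavy chain genes, as stacked bars from 0 to 100% with 1 bar per library. Lower panel: the ratio of summed heavy chain TPM to B2m TPM in each library, which lay between 1.21 and 1.96. The red block of H2-Q4, H2-Q6 and H2-Q7 is taller in ARE than in WT libraries, and the green block of H2-T22 and H2-T23 is tallest in WT ovary (17.1% to 18.9%).

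The genes varied together from library to library. With log2 CPM centred within each tissue, the Pearson correlation over the 18 libraries was 0.912 to 0.999 for the 36 pairs without H2-Q10, and highest for H2-K1 with H2-D1 and for H2-Q6 with H2-Q7. For the 9 pairs with H2-Q10 it was 0.824 to 0.886 within the uterus and 0.131 to 0.178 within the ovary. The libraries share the genotype groups, so these values describe the pattern and were not tested. Of 17801 genes compared, those most like the mean profile of the members were Ifi47 (r = 0.992), Tgtp1 (r = 0.992), H2-DMb1 (r = 0.991), Tgtp2 (r = 0.991) and Cd74 (r = 0.990). The members themselves and the other class I genes described below were left out of this ranking. Ifi47, Tgtp1 and Tgtp2 encode interferon-induced GTPases, the latter as near-identical copies, and H2-DMb1 and Cd74 belong to the class II pathway.

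Nlrc5 stood at 27.8, 29.9 and 32.7 CPM in WT uterus and at 106, 192 and 195 CPM in ARE-/- uterus (log2 2.44 ± 0.28, adjusted p = 0.00199). In the ovary it went from 10.9, 10.8 and 10.3 CPM to 92.6, 138 and 98.3 CPM, the largest rise of its list there (log2 3.36 ± 0.16, adjusted p = 2.49e-06). Of 17 regulators, 5 rose and none fell in ARE-/- uterus, 3 rose in ARE+/- uterus, 8 rose and 1 fell in ARE-/- ovary, and 4 rose and 1 fell in ARE+/- ovary. The median log2 fold change of the list in ARE-/- was 0.17 in the uterus and 0.18 in the ovary, beside 0.04 and 0.02 over all genes tested. Rfx5, Rfxap, Rfxank, Nfya, Nfyb and Nfyc, the subunits that hold Nlrc5 at the promoter, were not called in either tissue, with log2 values of -0.34 (Nfya, uterus) to 0.18 (Nfya, ovary) in ARE-/-. The lowest values were those of Creb1 in the uterus (-0.41 ± 0.24, adjusted p = 0.376) and of Atf1 in the ovary, which fell by 0.36 ± 0.08 on the log2 scale (adjusted p = 0.0238).

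Class I molecules need peptides, which the proteasome cuts, the TAP transporter imports and chaperones load. Of 13 genes of this supply, 8 rose in ARE-/- uterus, 4 in ARE+/- uterus, 12 in ARE-/- ovary and 8 in ARE+/- ovary, and none fell. Psmb9, a catalytic subunit of the immunoproteasome, rose most in both tissues, from 12.7 to 21.0 CPM in WT to 112 to 162 CPM in ARE-/- uterus (log2 2.96 ± 0.25, adjusted p = 0.000592) and from 9.01 to 10.2 CPM to 99.95 to 108.5 CPM in the ovary (log2 3.44 ± 0.13, adjusted p = 1.87e-06). Canx, the chaperone calnexin, had the lowest value in both, at -0.54 ± 0.21 (adjusted p = 0.201, uterus) and -0.04 ± 0.08 (adjusted p = 0.827, ovary). The list's median in ARE-/- was 1.28 in the uterus and 1.29 in the ovary, against 2.77 and 2.79 for the members.

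Of the other class I and class I-like genes, 20 were listed. In the uterus 7 of the 15 tested rose in ARE-/- and 3 in ARE+/-, and in the ovary 6 and 4 of 16, with none falling. The highest in the ovary was H2-Q5, another gene of the Q region, whose mean was 4.92 ± 1.25 CPM in WT against 57.9 ± 6.21 CPM in ARE-/- (log2 3.56 ± 0.22, adjusted p = 1.86e-05). The highest in the uterus among those with at least 1 CPM was Cd1d1, which presents lipids to natural killer T cells (log2 3.30 ± 0.65, adjusted p = 0.0256). Its ARE-/- libraries stood at 145, 38.9 and 38.0 CPM, the first being the library with high adipocyte markers, and its WT libraries at 4.61, 13.6 and 4.29 CPM. H2-M5 was lowest in both tissues and did not pass (-0.27 ± 0.55, adjusted p = 0.836 in the uterus, and -1.85 ± 0.88, adjusted p = 0.217 in the ovary).

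Receptors that read class I molecules include the CD8 coreceptor of T cells and receptors of natural killer and myeloid cells. Cd8a, a chain of the coreceptor that binds H2-K1 and H2-D1 on T cells, stood at 0.215, 0.534 and 0.381 CPM in WT uterus and at 13.2, 16.7 and 17.3 CPM in ARE-/- uterus (log2 5.36 ± 0.38, adjusted p = 0.000516). In the ovary it went from 0.460, 0.611 and 0.602 CPM to 8.66, 12.3 and 6.89 CPM (log2 4.05 ± 0.31, adjusted p = 6.21e-05). Of 17 receptor genes tested in the uterus, 5 rose and 1 fell in ARE-/- and 5 rose in ARE+/-. Of 16 in the ovary, 11 rose in ARE-/- and 4 in ARE+/-. The gene that fell was Klra8, at 8.69, 13.2 and 10.9 CPM in WT uterus and 0.972, 2.54 and 3.59 CPM in ARE-/- (log2 -2.21 ± 0.48, adjusted p = 0.0375). It encodes a natural killer receptor and was listed by its family, Ly49. Its fall is not read as that of a receptor for the class I molecules described here. Cd160 had the lowest value in the ovary among those with at least 1 CPM (1.14 ± 0.35, adjusted p = 0.0671).

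Immune cells carry much class I, and their markers were measured beside the members. In the uterus, 9 of 10 T cell markers rose in ARE-/- and their summed level was 25.2 to 35.2 CPM in WT, 47.5 to 62.1 CPM in ARE+/- and 114 to 145.5 CPM in ARE-/-. In the ovary 9 of 10 rose, with sums of 21.4 to 23.4 CPM, 37.5 to 51.5 CPM and 56.0 to 122 CPM. Of the macrophage markers, 6 of 8 rose in ARE-/- uterus, 0 of 8 in ARE+/- uterus and 5 of 8 in ARE-/- ovary. In ARE+/- ovary, Adgre1, Csf1r, C1qa and Fcgr1 were called higher and the other macrophage markers were not called. Their sum was 451 to 583 CPM in WT uterus, 901 to 1190 CPM in ARE+/- and 1157 to 2088 CPM in ARE-/-. The ovarian sum was 380 to 494 CPM in WT, 655 to 823 CPM in ARE+/- and 668 to 1354 CPM in ARE-/-. Dendritic cell markers (3 of 6 rose in each tissue) summed to 43.5 to 57.4 CPM in WT uterus, 56.3 to 121 CPM in ARE-/- uterus, 53.0 to 67.4 CPM in WT ovary and 79.5 to 147 CPM in ARE-/- ovary. For B cell markers 1 of 6 rose in each tissue, with sums of 15.1 to 25.8 CPM in WT uterus, 128 to 138 CPM in ARE-/- uterus, 11.04 to 17.6 CPM in WT ovary and 36.6 to 677 CPM in ARE-/- ovary. Adipocyte markers (8 of 8 rose) and red cell markers (5 of 5 tested rose) were also raised in ARE-/- uterus, and 0 of 8 and 0 of 5 were called in ARE-/- ovary. None of the markers of T cells, macrophages, dendritic cells, B cells or adipocytes was at 0 in all 3 libraries of any group. The part of these cells in the rise of the class I genes was not tested. The tissue labels were checked with markers in WT: all 10 uterus markers were lower and all 12 ovary markers higher in the ovary. In ARE-/- ovary, replicate 6 had the lowest sums of T cell, macrophage, B cell, dendritic cell and adipocyte markers of the 3. It also had the highest sum of ovary markers, at 11435 CPM against 5129 CPM in replicate 2 and 4869 CPM in replicate 3. In replicate 6, 8 of the 10 members were at their lowest among the ARE-/- ovaries. The exceptions were H2-Q7 and H2-M3, lowest in replicate 2. The share of all genes lowest in replicate 6 was not counted, and a link between these values was not tested.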

How the data were processed

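The authors deposited 1 table of raw read counts per tissue, made with featureCounts 2.0.4 on GENCODE M32, per the file headers. A read that overlapped or mapped to several genes added to each. Each mate of a pair added 1, so that a pair could add 2, and 68.1% to 76.4% of counts from 1 to 20 were even. Strand was ignored, so reads of a gene and of an overlapping gene on the other strand cannot be told apart. STAR, DESeq2 and the build mm10 are named in the submitters' processing notes; GENCODE M32 belongs to a later build, so coordinates are given as the files have them. The deposited adjusted p-values of a likelihood-ratio test over genotypes were used only where named.

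The counts held 57010 gene IDs, of which 52029 (91.3%) had a symbol. The 9 libraries of a tissue entered 1 robust quasi-likelihood fit (edgeR 4.0.16, R 4.3.3), after filterByExpr and TMM scaling, with 1 mean per genotype, and all 18 libraries were fitted for comparisons between tissues. Benjamini-Hochberg adjustment ran over every gene tested, and a gene was called at an adjusted p under 0.05. The uterus count columns carry genotype letters that were read as in the ovary, where the replicate numbers fix their meaning. The SE is the log2 fold change divided by the root of its F statistic. TPM was computed from the counts and the annotated gene lengths. The model was tested on simulated data. The alternatives were DESeq2 1.42.0, other scalings and filters, halved counts, summed H2-Q copies, a replicate block, fits of only the groups compared, and leaving out each library. The members, gene lists and tests were chosen with earlier results of these data known. Named genes were the members, Ifng, Nlrc5, the highest and lowest log2 fold change of each list in each tissue at a mean of at least 1 CPM, and, outside the members and the other class I genes, the 5 genes most like the members. One gene this rule selects is not reported here. The subunits of RFX and NF-Y were named after their values were seen. Replicate numbers were checked by correlating deviations from group means. For ARE+/- with ARE-/- in the uterus, all 3 same-numbered pairs exceeded 0.1 (0.101, 0.111 and 0.343). The numbers were taken to pair those libraries, from the data and not from the labels, only for the count of same-numbered pairs and the fit with a block. The main fits, and the SEs and p-values taken from them, had no replicate block. The differently numbered pair ARE+/- 1 with ARE-/- 2 reached 0.184, so this pairing is uncertain.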

Additional observations from a re-analysis of the deposited data

Results flagged for a closer look

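The effect of ARE-/- on H2-Q10 differed between the tissues in the interaction test over 18 libraries, by -3.78 ± 0.65 (SE) on the log2 scale, ovary minus uterus (edgeR's quasi-likelihood test, adjusted p = 0.0318). H2-Q10 was higher in 3 of 3 ARE-/- uterus libraries than in any WT uterus library, and the ARE-/- and WT ovary libraries overlapped. Across the alternatives the adjusted p ranged from 3.43e-06 to 0.109 and the difference from -4.13 to -2.98.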

How the results depend on the processing

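Apart from the difference in the ARE+/- effect between tissues, for which only the count of calls was followed (0 throughout), the direction of the members' values was the same under all alternatives run except for H2-Q10. Its value turned negative in the ovary for ARE-/- against WT when single libraries were left out (-0.14 to 0.18, below 0 without WT replicate 2 or ARE-/- replicate 2), and in the uterus for ARE+/- against the midpoint (-0.10 to 0.77, below 0 without ARE+/- replicate 1). Of the single member values under alternatives, 1804 kept their side of the threshold, 78 lost it, 25 gained it and 3 turned. When single libraries were left out, including libraries of the group not compared (chosen after seeing the data), the number of members called was 9 to 10 for ARE-/- and 0 to 10 for ARE+/- against WT in the uterus, 9 in each for the ovary, 0 to 6 for ARE-/- against ARE+/- in the ovary, 7 for WT ovary against WT uterus and 0 to 1 for the difference in the ARE-/- effect. The count of 4 for ARE-/- against ARE+/- in the ovary was 9 in DESeq2 (197 genes called in all), 7 with no filter beyond 1 count, 2 with halved counts, 0 with at least 1 CPM in 3 libraries and 0 with only the 2 groups in the fit. With the H2-Q copies summed it was 2, the difference in the ARE-/- effect gave 0 and the WT tissues gave 4, from 7 rows in place of 10. DESeq2 called 4 members in the uterus and 5 in the ovary against the midpoint, of 103 and 34 genes called in all. With the replicate number as a block, ARE-/- against ARE+/- in the ovary gave 0, ARE+/- against WT gave 7 in the ovary and 10 in the uterus, and ARE-/- against WT gave 10 in the uterus and 9 in the ovary. For ARE-/- against ARE+/- in the uterus the block gave 0. Same-numbered libraries correlated at -0.03 to 0.34 in the uterus (5 of 9 pairs over 0.1) and at -0.16 to 0.01 in the ovary (0 of 5). Differently numbered libraries reached 0.18 in the uterus (1 of 18 pairs over 0.1) and 0.27 in the ovary (6 of 22). The labels name no pairs, and the main fits assumed none. Between ARE+/- and ARE-/- uterus, same-numbered libraries were also compared as pairs, and that pairing is uncertain. Other causes of these changes were not tested. Depth limited H2-Q10 in WT uterus, at 40 to 58 counts, in which each mate of a pair was counted by itself.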
